A study of Homo sapiens with 8 samples.

Results

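The S100 proteins are small calcium-binding proteins, and 10 of their genes were described here in HCT116, a human colorectal cancer cell line: S100A2, S100A3, S100A4, S100A6, S100A8, S100A9, S100A10, S100A11, S100A14 and S100P. Members were the non-control probes whose gene name is one of these symbols, which gave 11 of the 50599 distinct probes on the array. S100A11 had 2 probes and each other gene had 1. Probes of 8 genes (9 probes) exceeded background clearly on the 2 arrays of 1 condition or more and were tested among 27287 probes, whereas S100A8 and S100A9 were not tested. Expression was read from 8 one-color arrays, 1 for each of 4 clones with and without the drug. CONT1 and CONT2 were stably transfected with a control miRNA plasmid, and TET1-KD1 and TET1-KD2 with plasmids for different artificial miRNAs against TET1, a dioxygenase that oxidizes 5-methylcytosine. All 4 lines were selected with G418 and grown from isolated GFP-positive colonies, so that each is 1 clone and a difference between the kinds of clone rests on 2 clones of each. Each clone was analyzed untreated and after 72 h in 1 µM 5-aza-dC, an inhibitor of DNA methyltransferases, with drug and medium renewed every 24 h. The condition of each array follows its title. The titles conflict with another field of the labels, which has mock treatment on every control array and the drug on every knockdown array.

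S100 proteins carry EF-hand motifs, change shape when calcium binds and then attach to target proteins, mostly as dimers. Their genes lie close together on chromosome 1 beside the genes of the epidermal differentiation complex, and many are used as markers of epithelial or myeloid cells and of tumor invasion. S100A10 is an exception that does not need calcium and binds annexin A2, and S100A8 with S100A9 forms calprotectin, a protein of neutrophils and monocytes. The probes of 9 members lie within 1.63 Mb of chromosome 1 (hg19 chr1:151955420-153587065), and that of S100P lies on chromosome 4 (hg19 chr4:6698819-6698878, plus strand). Probe positions are those in the array files, and exons and untranslated regions were not assigned to them here.

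5-aza-dC inhibits DNA methyltransferases, which act mainly on cytosines in CG dinucleotides. The sequence around the transcription starts of 4 members is therefore given from RefSeq (GRCh38.p14), with every CG in capitals. S100P, S100A3 and S100A11 were called after treatment in the results below, and S100A10 was not. S100A2, which was also called, is given by its CG counts only. The motif CG reads the same on both strands. Of 35116 RefSeq promoter windows of this length (300 bases), 96.0% hold at least 1 CG, and the median window holds 14. The S100P window (chr4:6693628-6693927, plus strand) and the S100A3 window (chr1:153549209-153549508, minus strand) each hold 5, whereas the S100A11 window (chr1:152036955-152037254, minus strand) holds 22 and the S100A10 window (chr1:151993810-151994109, minus strand) holds 32.
S100P: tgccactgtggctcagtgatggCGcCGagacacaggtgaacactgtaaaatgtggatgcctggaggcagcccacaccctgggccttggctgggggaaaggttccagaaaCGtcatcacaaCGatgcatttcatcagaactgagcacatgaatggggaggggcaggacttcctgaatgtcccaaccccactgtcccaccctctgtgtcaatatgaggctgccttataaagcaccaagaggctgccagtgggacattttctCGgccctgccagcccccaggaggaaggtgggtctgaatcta
S100A3: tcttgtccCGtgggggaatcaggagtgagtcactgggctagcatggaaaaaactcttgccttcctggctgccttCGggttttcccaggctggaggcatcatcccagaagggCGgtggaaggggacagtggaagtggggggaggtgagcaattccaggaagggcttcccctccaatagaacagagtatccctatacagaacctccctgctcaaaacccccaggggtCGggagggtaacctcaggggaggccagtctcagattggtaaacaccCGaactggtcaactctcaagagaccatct
S100A11: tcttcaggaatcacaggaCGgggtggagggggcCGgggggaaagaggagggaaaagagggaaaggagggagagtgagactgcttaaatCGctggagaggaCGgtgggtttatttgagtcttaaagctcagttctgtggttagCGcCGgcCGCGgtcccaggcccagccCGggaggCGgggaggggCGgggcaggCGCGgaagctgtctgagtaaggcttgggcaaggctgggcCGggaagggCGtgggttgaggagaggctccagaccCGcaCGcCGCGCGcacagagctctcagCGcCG
S100A10: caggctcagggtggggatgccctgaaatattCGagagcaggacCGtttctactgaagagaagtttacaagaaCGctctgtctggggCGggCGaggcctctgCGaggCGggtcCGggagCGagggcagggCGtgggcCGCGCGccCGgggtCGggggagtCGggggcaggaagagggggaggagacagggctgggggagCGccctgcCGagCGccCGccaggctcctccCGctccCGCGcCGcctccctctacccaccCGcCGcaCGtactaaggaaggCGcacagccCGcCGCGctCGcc
Among the other members, the S100A6 window holds 31 CG, S100A4 8, S100A9 and S100A14 5 each, both S100A2 windows 4 or 5 and each of 3 S100A8 windows 2. Methylation of these windows was not analysed here.

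The 75th percentile of the processed intensities was 395.5 to 623.7 per array, the spots well above background numbered 29490 to 34276 of 58717, and none was saturated. All values below are log2 of the processed intensity after scaling to a common 75th percentile. Levels of different probes were not compared with each other, because probes differ in brightness. Both treated control arrays were scanned on the second slide 230 days after the other 6, so in the control response, in the comparison of treated clones and in the difference in response, condition and slide cannot be told apart. The brightest spike-in RNA had a mean log2 signal of 18.07 on the first slide and 18.03 on the second. Spike-ins E1A_r60_a20 and E1A_r60_a135 had 9.36 and 7.90 on the first and 8.36 and 6.90 on the second. First-slide SDs were 0.049, 0.052 and 0.035. The gap between slides thus differed with signal level. These means were not set against single S100 differences, and spike-in scaling is among the alternatives below. The knockdown response and the untreated comparison lie within the first slide. TET1 itself had 3 tested probes. On probe A_33_P3295550 it read 9.70 and 9.75 in untreated CONT1 and CONT2 and 8.65 and 9.41 in untreated TET1-KD1 and TET1-KD2, and after treatment 9.64, 9.64, 8.99 and 9.48 in the same order. On A_19_P00806490 the untreated values were 6.12, 6.10, 4.56 and 5.71 and the treated values 6.33, 5.86, 4.77 and 4.91, and on A_23_P322756 they were 4.95, 4.38, 2.19 and 2.85 and then 3.62, 4.06, 2.90 and 3.86. Every untreated knockdown array was below both untreated control arrays on all 3 TET1 probes. The mean difference was −0.69 and −0.98 on the first probes, and neither passed the test (limma adjusted p = 0.610 and 0.585, n = 2). On A_23_P322756 neither untreated knockdown array was well above background, so that only a bound can be given: TET1 was at least 1.20-fold higher in the untreated control clones (limma adjusted p = 0.370, n = 2). By quantitative RT-PCR, a separate measurement, the paper reports lower TET1 mRNA in both knockdown clones, with the larger reduction in TET1-KD1. Of 9 epithelial marker genes, 7 were above background on all 8 arrays (VIL1 on 2 and LGALS4 on 5). Their summed level, here and below the log2 of the added intensities, was 18.3 to 18.6. It was carried by KRT19 (17.36 to 17.76) and KRT18 (16.08 to 17.01), so changes of the dimmer genes hardly enter it. Of 9 leukocyte and myeloid marker genes, FCGR3A was above background on no array and 5 were above it on all 8. Their summed level was 9.26 to 9.98 on the untreated arrays and 10.97 to 11.75 on the treated arrays, so it moved with the treatment, and its part in the S100 results was not tested. Of 6 fibroblast genes, COL1A2, COL3A1 and LUM were above background on no array, and the summed level was 8.43 to 8.83 untreated and 9.34 to 9.82 treated. Of 7 keratinocyte genes, KRT1, IVL, LOR and TP63 were above background on no array, and the sum, carried by KRT10, was 14.1 to 14.9. The basal keratins KRT5 and KRT14 were each above background on the 4 treated arrays and on no untreated array, with KRT5 at 2.20 to 2.60 untreated and 4.62 to 7.52 treated, and KRT14 at 2.22 to 3.91 untreated and 5.81 to 7.11 treated.

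The first question was how each S100 gene changed with 5-aza-dC. In the control clones, 4 of the 8 tested members rose (S100P, S100A3, S100A2 and S100A11) and 0 fell, in a comparison in which 19.2% of all tested probes were called higher and 22.6% lower at an adjusted p below 0.05 (limma, Benjamini-Hochberg). In the knockdown clones, S100P and S100A11 rose and 0 members fell, where 8.91% of all probes were called higher and 2.9% lower. At an unadjusted p below 0.05 the member counts were 5 and 3 of 8, where 51.2% and 27.9% of all tested probes passed. The median difference of the 8 members was 0.98 for control and 0.93 for knockdown clones, whereas over all tested probes it was −0.08 and −0.07. The members were chosen with earlier results of these data known, so this contrast is given as a description. These are bulk samples, in which a change in the share of cells that express a gene and a change in RNA per cell cannot be told apart. The split of calls over all probes depended on the scaling. In the control clones 5234 probes were called higher and 6168 lower, whereas after scaling to spike-in RNAs the counts were 7917 and 3285 and the median of all probes moved to 0.27. The same 4 members were called higher there, with differences of 3.35 for S100P, 2.11 for S100A3, 1.26 for S100A2 and 0.88 for S100A11. In the knockdown clones 2430 probes were called higher and 790 lower, and 2061 and 1259 after quantile normalization.

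S100P, which binds ezrin and acts outside cells through the receptor for advanced glycation end products, was the member with the largest response in both kinds of clone. Its untreated log2 signal was 6.61 and 6.65 in CONT1 and CONT2 and 6.71 and 6.07 in TET1-KD1 and TET1-KD2. After 5-aza-dC the values were 9.45 and 9.52 in the control clones and 8.58 and 9.39 in the knockdown clones, in that order. Every treated array was above every untreated array, and TET1-KD1 had the lowest treated value. The control clones rose by 2.85 on the log2 scale (7.22-fold, SE 0.32, 95% interval 2.08 to 3.63, limma adjusted p = 0.00125, n = 2 clones). The knockdown clones rose by 2.59 (6.03-fold, 95% interval 1.82 to 3.37, limma adjusted p = 0.00399, n = 2). The responses of the single clones were 2.84 and 2.86 in CONT1 and CONT2 and 1.87 and 3.32 in TET1-KD1 and TET1-KD2, so the knockdown clones lay on both sides of the control clones. Of the alternatives run for S100P, only the methods' t-test ended a call, that in the knockdown clones (adjusted p = 0.279).

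S100A2, a member known from squamous and basal epithelia, was higher in each treated clone. Among the keratinocyte markers, KRT5 and KRT14, basal keratins, were higher in each treated clone too. TP63, KRT1, IVL and LOR were above background on no array. KRT10 was lower in treated CONT1, CONT2 and TET1-KD1 and higher in treated TET1-KD2. The part of these genes in the result was not tested. S100A2 was at 11.44 and 11.52 in untreated CONT1 and CONT2 and at 11.74 and 11.26 in untreated TET1-KD1 and TET1-KD2. After 5-aza-dC it was at 12.42, 12.98, 12.34 and 12.48. The treated and untreated arrays did not overlap. The control clones rose by 1.23 (2.34-fold, SE 0.25, limma adjusted p = 0.0106, n = 2), and the knockdown difference was 0.91 (95% interval 0.31 to 1.52, limma adjusted p = 0.0687), which did not pass the test. Without untreated CONT1 or untreated CONT2 the control difference of S100A2 was 1.19 or 1.27 and no longer passed (limma adjusted p = 0.0599 and 0.0510). The methods' t-test did not call it either (adjusted p = 0.114). The knockdown difference passed after quantile normalization, with an offset of 50 before the log2 and after normexp background correction (limma adjusted p = 0.0372, 0.0437 and 0.0499).

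S100A3, a cysteine-rich member known from the hair cuticle, had a wider spread between clones. Its untreated values were 10.11 and 10.29 in CONT1 and CONT2 and 9.01 and 10.34 in TET1-KD1 and TET1-KD2. Its treated values were 11.90, 12.49, 10.18 and 11.65 in the same order. TET1-KD1 was the lowest clone in both conditions, by 1.10 and 1.47 below the next, and its treated value lay below untreated CONT2 and TET1-KD2. The control clones rose by 1.99 (3.98-fold, SE 0.60, limma adjusted p = 0.0393, n = 2). This call was lost when any 1 of the 4 control arrays was left out, with differences of 1.70 to 2.29 and limma adjusted p-values of 0.0813 to 0.161. It was also lost with no filter on dim probes (adjusted p = 0.0706) and by the methods' t-test (adjusted p = 0.0777). In the knockdown clones the difference of 1.24 did not pass (95% interval −0.22 to 2.70, limma adjusted p = 0.244). With the clone as a replicate block, which removes the difference between clones, it did (SE 0.16, limma adjusted p = 0.0196), and the single-clone responses were 1.17 and 1.31.

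**Figure D1:**
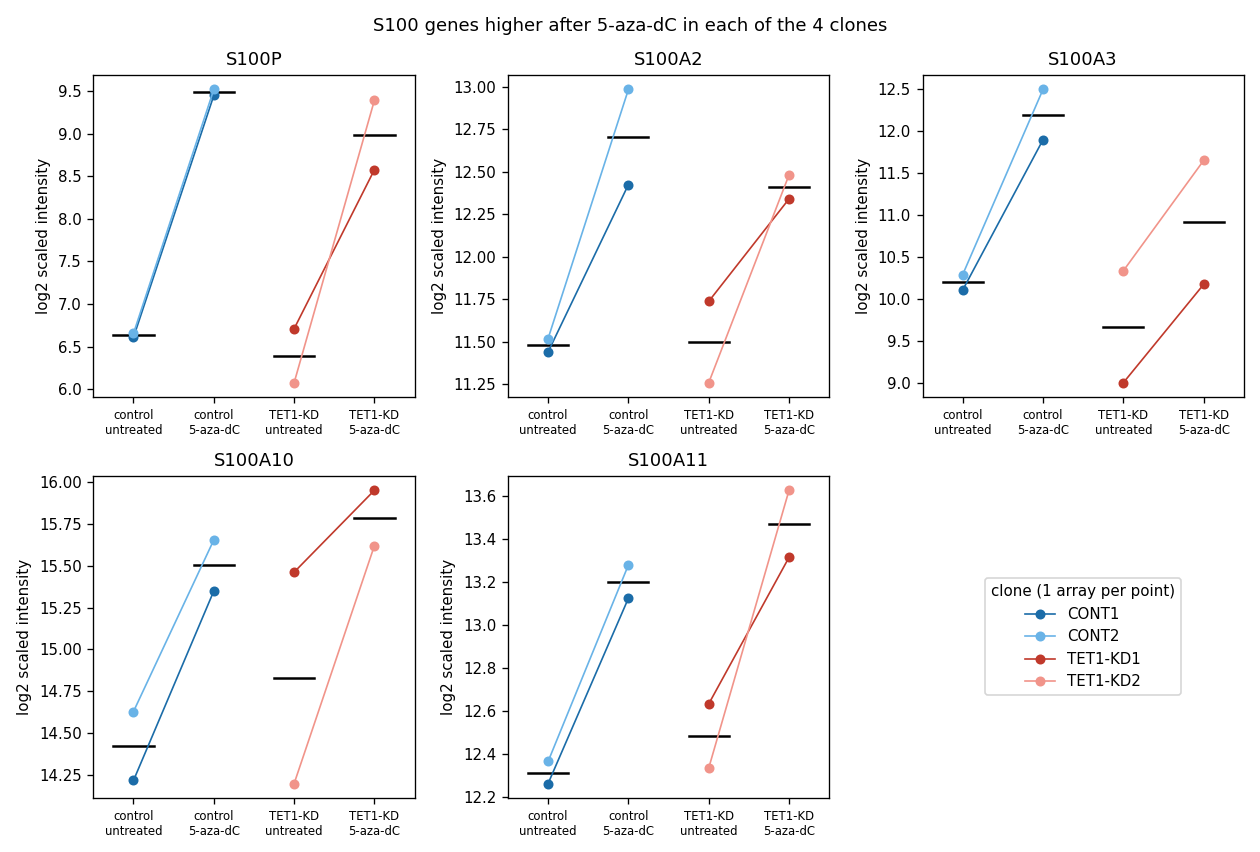
Log2 scaled intensity (vertical axes, a separate range for each gene) of 5 S100 genes on the 8 arrays by condition, with 1 point for each array, a line joining the arrays of a clone and a black bar at the mean of 2 clones. All 4 lines rise in each panel; S100P rises from between 6.07 and 6.71 to between 8.58 and 9.52, and TET1-KD1 is the lowest clone for S100A3.

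S100A10, the annexin A2 ligand, was at 14.22 and 14.63 in untreated CONT1 and CONT2, 15.46 in untreated TET1-KD1 and 14.20 in untreated TET1-KD2. After 5-aza-dC it was at 15.35, 15.65, 15.95 and 15.62. Each clone was higher when treated, but untreated TET1-KD1 lay above treated CONT1. The control and knockdown differences of 1.08 and 0.96 (2.11-fold and 1.94-fold) did not pass the test (limma adjusted p = 0.0820 and 0.201, n = 2). With the clone as a replicate block S100A10 passed in the control clones (SE 0.26, limma adjusted p = 0.0316). It also passed there without either untreated knockdown array (limma adjusted p = 0.0181 each) and after normexp background correction (limma adjusted p = 0.0490), and in the knockdown clones without untreated TET1-KD1, where the difference was 1.59 (limma adjusted p = 0.0338).

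S100A11, a member that binds annexin A1 and is abundant in epithelia, was read by 2 probes that lie side by side on chromosome 1 (minus strand, hg19) and share 1 base. Their sequences are shown because the probes gave unequal control responses. Probe A_23_P126593 lies at chr1:152005219-152005278 with 45% GC, and A_23_P145863 lies at chr1:152005160-152005219 with 48.3% GC.
A_23_P126593: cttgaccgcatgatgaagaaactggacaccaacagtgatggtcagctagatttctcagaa
A_23_P145863: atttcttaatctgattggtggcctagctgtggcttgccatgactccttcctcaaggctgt
RefSeq lists 10 pseudogenes of S100A11 and 0 of any other member, and signal from such copies was not separated here. The probe with the higher mean over all 8 arrays, A_23_P126593, stands for the gene in the counts. It was the brighter one only on the treated control arrays, so the control response itself decided that choice. On A_23_P126593 the untreated values were 12.26, 12.37, 12.63 and 12.34 in CONT1, CONT2, TET1-KD1 and TET1-KD2, and the treated values were 13.13, 13.28, 13.32 and 13.63. All treated arrays lay above all untreated ones. The control clones rose by 0.89 (1.85-fold, SE 0.19, limma adjusted p = 0.0116, n = 2) and the knockdown clones by 0.99 (1.98-fold, SE 0.19, limma adjusted p = 0.0216).

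On A_23_P145863 S100A11 was at 12.35, 12.49, 12.80 and 12.51 untreated and at 12.62, 12.88, 13.45 and 13.73 treated, in the same order of clones. The treated knockdown arrays stood apart from all others, whereas treated CONT1 lay below untreated TET1-KD1. The knockdown clones rose by 0.94 (limma adjusted p = 0.0289, n = 2), and the control difference of 0.33 did not pass (95% interval −0.14 to 0.79, limma adjusted p = 0.213). Treated knockdown clones were higher than treated control clones by 0.84 on this probe (limma adjusted p = 0.0317), and by 0.27 on the other one, which did not pass (limma adjusted p = 0.348). The difference in response did not pass on either probe (0.61 and 0.10, limma adjusted p = 0.231 and 0.851). Both treated control arrays lie on the second slide. With the mean of its 2 probes in place of the brighter one, S100A11 rose by 0.61 in the control clones (limma adjusted p = 0.0428). The rise of S100A11 on A_23_P126593 was also fragile to single arrays. In the control clones it was 0.84, 0.94 and 0.81 without untreated CONT1, untreated CONT2 or treated CONT2 (limma adjusted p = 0.0714, 0.0541 and 0.0585). In the knockdown clones it was 0.84 and 0.83 without untreated or treated TET1-KD2 (limma adjusted p = 0.0913 and 0.105), and 0.99 without either untreated control array (limma adjusted p = 0.0523 each). The knockdown call also ended with no filter on dim probes (limma adjusted p = 0.0520) and in a fit of the 4 knockdown arrays alone (limma adjusted p = 0.110). By the methods' t-test neither kind of clone passed (adjusted p = 0.0562 for control and 0.294 for knockdown clones).

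**Figure D2:**
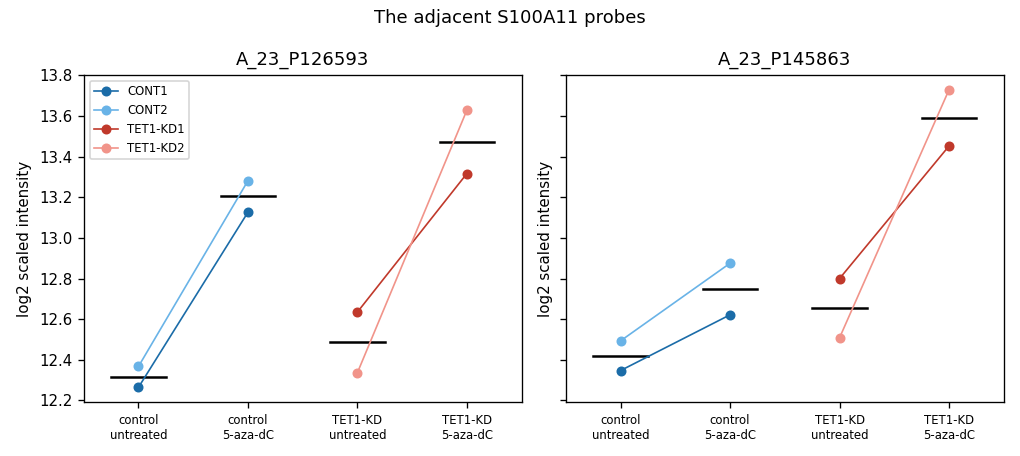
Log2 scaled intensity (shared vertical axis) of the adjacent S100A11 probes on the 8 arrays by condition, with 1 point for each array, a line for each clone and a black bar at the mean of 2 clones. The knockdown clones rise alike on both probes (by 0.99 and 0.94), whereas the control clones rise by 0.89 on A_23_P126593 and differ by 0.33 on A_23_P145863.

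S100A6, also called calcyclin, differed little between conditions. It was at 17.19, 17.27, 16.94 and 17.24 in untreated CONT1, CONT2, TET1-KD1 and TET1-KD2 and at 17.06, 17.46, 16.95 and 17.31 after 5-aza-dC. The groups overlapped, with TET1-KD1 lowest in both. The control clones differed by 0.03 (95% interval −0.50 to 0.56, limma adjusted p = 0.928, n = 2) and the knockdown clones by 0.05 (95% interval −0.48 to 0.58, limma adjusted p = 0.918). The control difference was −0.17 under spike-in scaling and −0.27 after quantile normalization.

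S100A4, which binds nonmuscle myosin IIA and is studied for its part in cell motility and metastasis, varied most between the arrays among the members (SD 1.98 over 8 arrays). It was at 15.11 in untreated CONT1, 14.17 in untreated CONT2, 9.27 in untreated TET1-KD1 and 14.03 in untreated TET1-KD2. After 5-aza-dC it was at 13.18, 13.12, 10.43 and 13.53. TET1-KD1 stood apart from the other 3 clones in both conditions, by 4.76 below the next clone when untreated and by 2.69 when treated. Only 5 of 27287 tested probes, S100A4 included, had a gap at least as large in that clone untreated, and 45 had one when treated. The other knockdown clone, TET1-KD2, lay below both control clones when untreated and above both when treated. The difference between untreated knockdown and control clones was −2.99 with a 95% interval of −6.94 to 0.96 and did not pass the test (limma adjusted p = 0.639, n = 2). The control clones differed by −1.49 after treatment (limma adjusted p = 0.494), both clones being lower (−1.93 and −1.05), and with TET1-KD1 left out, so that it no longer entered the spread, this passed (SE 0.35, limma adjusted p = 0.0346), as it did in a fit of the 4 control arrays alone. The knockdown clones moved in opposite directions, by 1.16 in TET1-KD1 and −0.50 in TET1-KD2 (mean 0.33, limma adjusted p = 0.924).

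The genes whose level followed that of S100A4 most closely over the 8 arrays, among 15844 genes compared, were MBD5 (r = 0.991), DGKQ (r = 0.990), C1orf21 (r = 0.988), LIF (r = 0.984) and LSS (r = 0.984). Each of these was lowest in untreated TET1-KD1 and next lowest in treated TET1-KD1. For C1orf21 the untreated values were 8.52, 8.37, 4.18 and 8.27 in CONT1, CONT2, TET1-KD1 and TET1-KD2 and the treated values 7.08, 7.44, 4.90 and 7.91. Its value in untreated TET1-KD1 lay under the lowest signal well above background on that array (4.19), so the level there was not measured. The points of these correlations share clones and slides, and 1 clone sets most of the range, so they are given as a description.

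S100A14, a member of epithelial cells that affects cell adhesion and motility, was at 12.01, 12.99, 10.25 and 13.39 in untreated CONT1, CONT2, TET1-KD1 and TET1-KD2 and at 10.29, 11.97, 11.08 and 13.23 after 5-aza-dC. Untreated TET1-KD1 lay 1.76 below the next clone, as 226 of 27287 probes did by at least as much, whereas TET1-KD2 was the highest clone in both conditions. Both control clones were lower when treated, by 1.71 in CONT1 and 1.02 in CONT2, and their mean difference of −1.37 did not pass (limma adjusted p = 0.399, n = 2). With the clone as a replicate block it passed (SE 0.32, limma adjusted p = 0.0304). The knockdown clones differed by 0.83 in TET1-KD1 and −0.17 in TET1-KD2 (mean 0.33, limma adjusted p = 0.895).

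S100A8 and S100A9, the calprotectin subunits, were not well above background on any of the 8 arrays. S100A8 read 2.31, 2.06, 2.10 and 2.47 in untreated CONT1, CONT2, TET1-KD1 and TET1-KD2 and 3.14, 2.59, 1.97 and 1.92 after treatment. S100A9 read 2.12, 2.62, 1.99 and 2.37 and then 2.43, 2.49, 1.88 and 1.86. The lowest signal that was well above background was 3.98 to 4.61 per array, above each of these values, so a change of either gene below that level was not detectable.

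**Figure D3:**
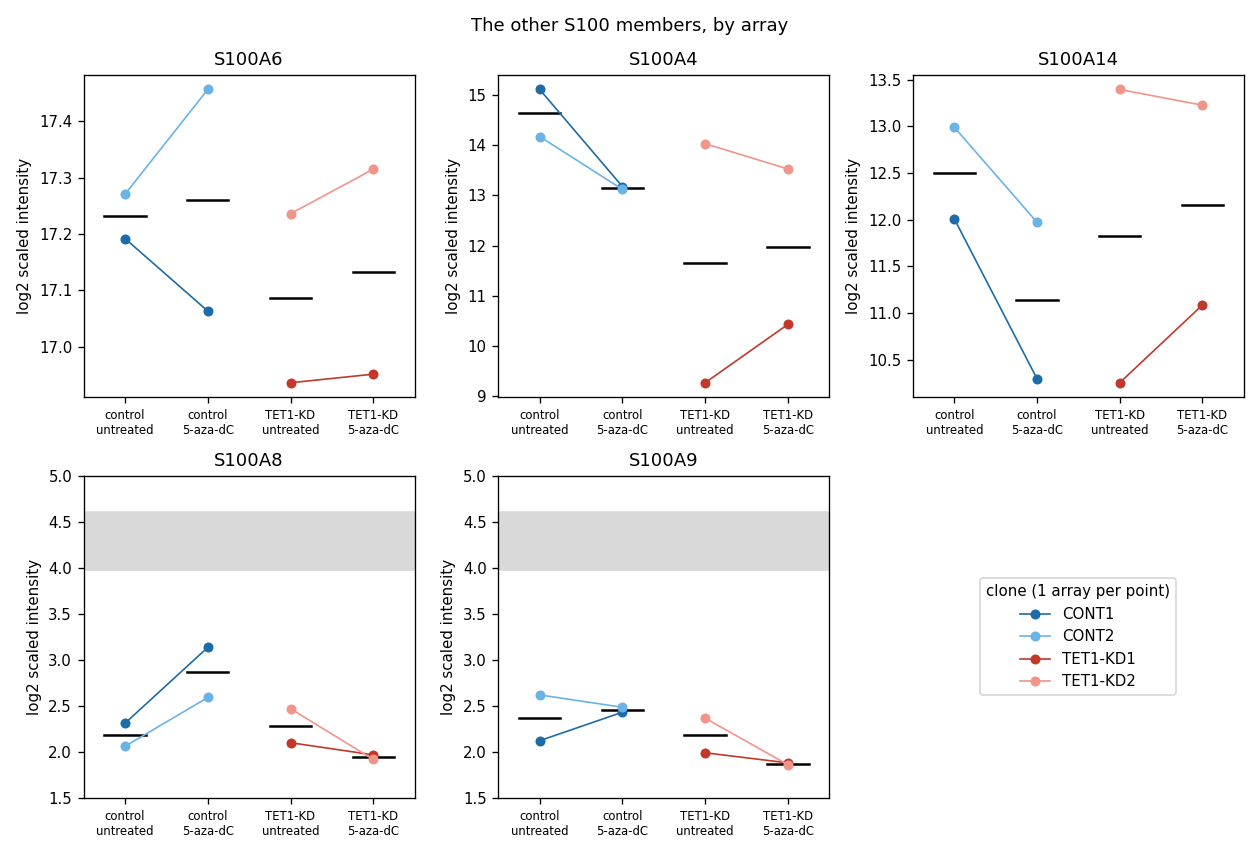
Log2 scaled intensity (vertical axes, a separate range for each gene) of the other 5 S100 genes on the 8 arrays by condition, with 1 point for each array, a line for each clone and a black bar at the mean of 2 clones. TET1-KD1 lies far below the other clones for S100A4 (9.27 and 10.43), and S100A8 and S100A9 lie under the gray band, which spans the lowest signals well above background on the arrays (3.98 to 4.61).

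The next question was whether TET1 knockdown changed S100 expression. Among untreated clones, 0 of 8 members were called higher and 0 lower by limma at an adjusted p below 0.05, where 0.00733% of all probes were called in each direction (2 higher and 2 lower, and 2 and 4 under spike-in scaling or quantile normalization). Among treated clones 0 members by their brightest probes were called in either direction, where 11.9% of probes were called higher and 6.91% lower (3236 and 1885 probes, and 2014 and 3418 under spike-in scaling, which moved the median of all probes from 0.04 to −0.20). The difference in response between knockdown and control clones passed for 0 members, where 4.02% of probes were called higher and 1.56% lower (1097 and 425 probes, and 674 and 1058 under spike-in scaling, which moved the median from 0.05 to −0.30). For the difference in response, fewer probes were called in each fit that left out 1 array or the TET1-KD1 clone. Such a fit keeps a single clone in a condition and estimates the spread from fewer arrays, so its counts are not compared with these. The median difference in response over all probes was 0.030 to 0.063 in those fits. At an unadjusted p below 0.05, 0 members by their brightest probes passed in any of the 3 comparisons between kinds of clone, where 8.26%, 35.7% and 24.7% of all tested probes did. The other S100A11 probe, A_23_P145863, enters none of these counts. It was called higher in treated knockdown than in treated control clones (0.84, limma adjusted p = 0.0317). The S100A11 probe counted was the brighter one only on the treated control arrays, which that comparison uses. The member medians were −0.19 untreated, −0.21 treated and −0.05 for the difference in response, beside 0.02, 0.04 and 0.05 over all tested probes. The intervals differed in width between members. For untreated S100P the difference between knockdown and control clones was −0.24 (95% interval −1.02 to 0.54), for S100A2 it was 0.02 (−0.59 to 0.62), and for S100A11 0.17 (−0.28 to 0.62). For treated S100A3 it was −1.28 (95% interval −2.74 to 0.18, limma adjusted p = 0.183, n = 2), and both treated knockdown arrays lay below both treated control arrays. For S100A14 the interval ran from −3.61 to 2.26 untreated.

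**Figure D4:**
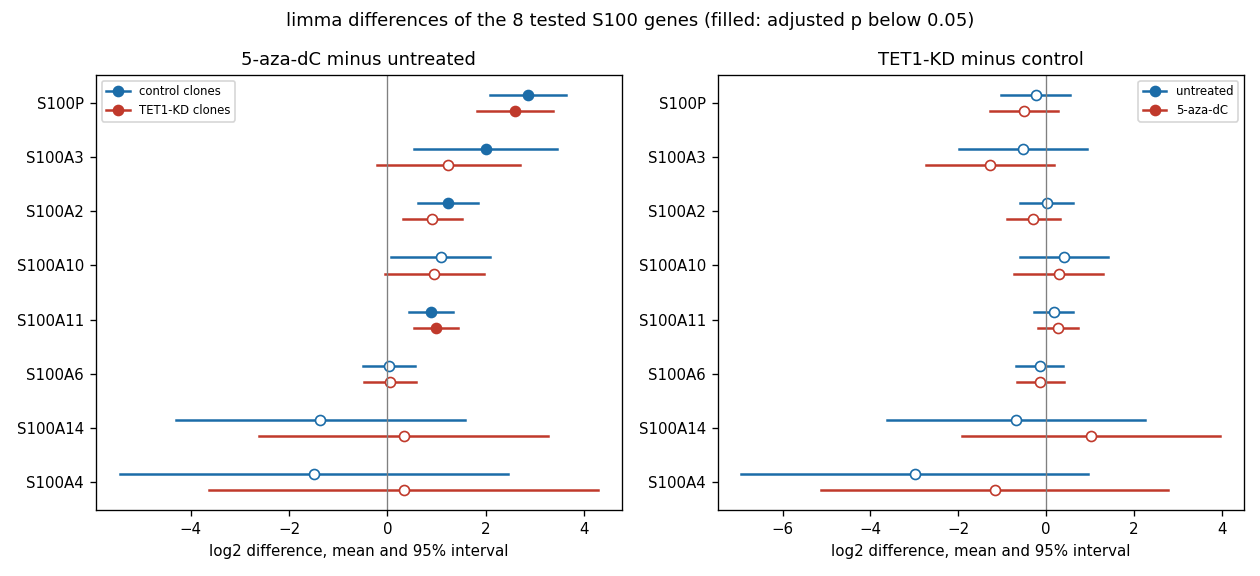
Log2 differences (horizontal axes) of the 8 tested S100 genes with their 95% intervals from limma, on the left between 5-aza-dC and untreated arrays of each kind of clone and on the right between knockdown and control clones in each condition. Filled points passed an adjusted p of 0.05: S100P, S100A3, S100A2 and S100A11 in the control clones and S100P and S100A11 in the knockdown clones, and none on the right; the intervals of S100A4 and S100A14 are the widest.

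Of the 11 other S100 genes on the array, 5 were tested (S100A5, S100A7, S100A13, S100A16 and S100Z). S100Z, a member on chromosome 5 with no well described role, was called higher in both kinds of clone. It read 2.11, 1.95, 1.95 and 2.32 in untreated CONT1, CONT2, TET1-KD1 and TET1-KD2, which was not well above background on any untreated array, and 6.42, 6.03, 5.62 and 5.52 after 5-aza-dC. Against the lowest signal well above background, S100Z was at least 3.76-fold higher after treatment in the control clones (limma adjusted p = 7.68e-05, n = 2) and at least 2.25-fold higher in the knockdown clones (limma adjusted p = 0.000214). S100Z entered the test only through the arrays on which it was high, and the fit used untreated signals under background, so its calls are given as a description. The difference in response of S100Z did not pass (limma adjusted p = 0.177). The other 4 passed in no comparison. S100A13 and S100A16, which lie on chromosome 1 close to S100A14, differed by −0.18 and −0.06 in the control clones and by 0.09 and −0.35 in the other clones. The medians of the 5 genes were −0.06 and 0.09. Of the 7 fused-type genes, larger proteins of the cornified layer with an S100 domain at their start, 1 was tested and 0 were called. That gene, TCHH (trichohyalin), differed by 1.19 in the control clones after treatment (limma adjusted p = 0.125, n = 2) and by 1.30 in the others (limma adjusted p = 0.186).

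Of 20 genes for S100 binding partners and receptors, 18 were tested, and TLR4 and CD36 were not. By their brightest probes, 5 rose and 5 fell in the control clones (median of the 18 genes 0.01). In the knockdown clones 1 rose and 0 fell (median −0.19). Between untreated kinds of clone 0 differed (2 at an unadjusted p below 0.05, limma, where 8.26% of all probes passed). Calls on dimmer probes are left out, such as CACYBP A_24_P45379, lower in the knockdown clones (−1.23, limma adjusted p = 0.0187). AGER A_33_P3396008 was at least 1.08-fold lower in treated control clones, where it was not above background (limma adjusted p = 0.0121). AHNAK is given below. Over all probes 19.2% rose and 22.6% fell in the control clones, and 8.91% rose and 2.9% fell in the knockdown clones. TGM2, the tissue transglutaminase, an enzyme that cross-links proteins, rose in both, from 7.85, 8.25, 7.17 and 7.37 in untreated CONT1, CONT2, TET1-KD1 and TET1-KD2 to 10.28, 10.98, 10.00 and 10.32. These rises were 2.58 in the control and 2.89 in the knockdown clones (limma adjusted p = 0.00117 and 0.00152, n = 2). Its dimmer probe, A_32_P86763, was not above background in untreated TET1-KD1 (3.94). It rose by 2.80 in the knockdown clones (limma adjusted p = 0.0224) and gave −0.80 in the control clones (limma adjusted p = 0.271).

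ANXA2, the annexin that S100A10 binds, was at 15.74, 15.97, 16.27 and 15.90 untreated and at 17.25, 17.41, 16.44 and 16.20 treated, in the same order of clones. The treated control arrays stood above all others. ANXA2 rose by 1.48 in the control clones (limma adjusted p = 0.00231, n = 2) and was lower by 1.01 in treated knockdown than in treated control clones (difference −1.01, limma adjusted p = 0.0198). On its dimmer probe the control difference was 0.48 (limma adjusted p = 0.117) and the treated difference between clones was 0.34 (limma adjusted p = 0.308), so the probes disagreed on the latter. ANXA5, another annexin, and SUGT1, a co-chaperone that binds S100A6, rose by 1.15 and 0.82 in the control clones (limma adjusted p = 0.0122 and 0.0161). AHNAK, a scaffold that the S100A10 and annexin A2 complex binds, was the other gene that rose, and is named after its values were seen because its probes moved apart: the brightest rose by 0.81 in the control clones (limma adjusted p = 0.0318), whereas A_23_P21363 fell by 2.90 there (limma adjusted p = 0.000408). Its remaining probe, A_23_P426636, gave −0.63 there and did not pass (limma adjusted p = 0.0983). A_23_P21363 also fell in the knockdown clones (−1.70, limma adjusted p = 0.00651), which the count by brightest probes leaves out, and AHNAK was higher on it in treated knockdown than in treated control clones (1.63, limma adjusted p = 0.00830).

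Among the partners that fell in the control clones, PPP5C, a phosphatase that S100 proteins can activate, was at 9.07, 9.11, 9.16 and 9.11 untreated and at 7.82, 7.75, 8.69 and 8.80 treated. Its 2 treated control arrays were the lowest, with a change of −1.30 (limma adjusted p = 0.000986, n = 2), and PPP5C was higher by 0.96 in treated knockdown than in treated control clones (limma adjusted p = 0.00802). PLA2G4A, the cytosolic phospholipase, and ANXA6 changed by −0.99 and −0.75 (limma adjusted p = 0.0125 and 0.0299). ANXA11, named after its values were seen, changed by −0.74 (limma adjusted p = 0.0134). Its dimmer probes, A_32_P150632 and A_33_P3356255, gave −1.24 and 0.09 (limma adjusted p = 0.0165 and 0.747). These calls in the control clones and between treated clones compare the slides as well as the conditions, which cannot be told apart.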

How the data were processed

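The authors labeled amplified RNA with one dye, hybridized it to SurePrint G3 Human GE 8x60K arrays (annotated on hg19) and deposited spot intensity values written by Agilent Feature Extraction 10.7, which had subtracted background and flagged poor spots. No normalization between arrays had been applied to these intensities, and the deposited value table matched them within rounding on 100% of spots. Here intensities were scaled to the 75th percentile of each array, floored at 1 and log2-transformed; flagged spots were left out and spots of 1 probe averaged. A probe with 0.5 or more of its spots well above background counted as above it, and was tested if this held for the 2 arrays of any condition. limma 3.58.1 in R 4.3.3 fitted 4 condition means to all 8 arrays, with Benjamini-Hochberg adjustment over 27287 probes. A gene was given by its brightest tested probe. Plots were drawn with matplotlib 3.10.9. The methods are not stated to use replicate clones as blocks. Arrays of 1 clone pair by design: their deviations from the condition means correlated at 0.20 in the control and 0.48 in the knockdown clones. The number of arrays limits the precision. The limma p-values rest on the spread between the 2 clones of a condition, pooled over all 4 conditions and drawn toward that of all tested probes. A comparison within 1 kind of clone therefore carries the spread of the other kind too.

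All 10 members are given; named besides them were TET1, the marker lists, the genes most correlated with the most variable member, and up to 4 called genes each way per list. Values of 1 partner gene, which the counts include, are not reported here. The members and lists were chosen with earlier results of these data known. Functions were tested on simulated arrays. Alternatives were normexp background correction, quantile and spike-in scaling, an offset of 50, other filters, flagged spots kept, the authors' value table, a mean over probes, a replicate block, a GC correction with it, subsets of arrays, the methods' t-test and leaving out each array.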

Additional observations from a re-analysis of the deposited data

Results flagged for a closer look

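The dimmer TGM2 probe, A_32_P86763, was the only probe among the S100 genes and partners tested here whose response differed between the kinds of clone by limma. The response of the knockdown clones exceeded that of the controls by 3.60 on the log2 scale (limma adjusted p = 0.04998, n = 2 clones of each). Its untreated values were 6.65, 7.03, 3.94 and 4.88 in CONT1, CONT2, TET1-KD1 and TET1-KD2, and the treated values were 5.57, 6.52, 6.61 and 7.82. The value of untreated TET1-KD1 was not above background, so that the size of the difference rests in part on a signal that was not measured there. On the brighter TGM2 probe the difference was 0.31 (limma adjusted p = 0.674), and the part of the slide in it cannot be told apart.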

How the results depend on the processing

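The 6 member calls kept their direction under every alternative run, and S100P was called under 22 of 22 alternatives in the control and 22 of 23 in the knockdown clones. Of the alternative values of called members, 113 stayed past the threshold and 21 did not, and of those of members not called, 670 kept direction and side, 16 became called and 52 changed sign. Among members, the number called higher in the control clones was 1 by the methods' t-test and 1 to 5 when 1 array was left out. The number called lower there was 1 with the clone as a replicate block, 1 with the GC trend removed as well, 1 in a fit of the 4 control arrays and 1 without the TET1-KD1 clone, an alternative chosen after seeing the data. The number called higher in the knockdown clones was 1 with no filter on dim probes, 1 in a fit of the 4 knockdown arrays, 0 by the methods' t-test and 1 to 3 when 1 array was left out. Besides the values given above, the replicate block changed no call of a member, except that S100A14 fell by 1.42 in the control clones with the GC trend also removed (limma adjusted p = 0.0277) and S100A3 rose by 1.21 in the knockdown clones (limma adjusted p = 0.0192).

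Every change of sign was of a difference that had not passed the test, and the cause was not tested. Quantile normalization and spike-in scaling gave S100A6 −0.27 and −0.17 in the control response and 0.30 and 0.26 between treated clones, and S100A10 0.22 and 0.036 in the difference in response; quantile normalization gave S100A2 −0.041 between untreated clones. With the GC trend removed and the replicate block, the difference in response was −0.31 for S100A6 and 0.21 for S100A10. Without the TET1-KD1 clone, the knockdown response was −0.50 for S100A4 and −0.17 for S100A14. In the same setting the untreated difference between kinds of clone was −0.22 for S100A2, 0.14 for S100A3, 0.0046 for S100A6, −0.22 for S100A10 and 0.90 for S100A14, the treated one was 0.38 for S100A4 and 0.055 for S100A6, and the difference in response was 0.34 for S100A10 and 0.47 for S100P. Leaving out 1 array at a time, the control response of S100A6 ran from −0.17 to 0.23, and the knockdown response from −2.05 to 2.71 for S100A4, −0.13 to 0.23 for S100A6 and −1.24 to 1.90 for S100A14. The untreated difference ran from −0.22 to 0.26 for S100A2, −1.19 to 0.14 for S100A3, −0.30 to 0.0046 for S100A6, −0.22 to 1.04 for S100A10, −2.25 to 0.90 for S100A14 and −0.56 to 0.078 for S100P. The treated one ran from −2.72 to 0.38 for S100A4, −0.32 to 0.070 for S100A6 and −0.048 to 2.09 for S100A14. The difference in response ran from −0.56 to 4.20 for S100A4, −0.18 to 0.22 for S100A6, −0.75 to 0.51 for S100A10, −0.057 to 0.25 for S100A11 and −0.67 to 0.15 for S100P. Low signal limits S100A8 and S100A9, which no array measured above background.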

Other observations

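A probe of TCHHL1, a fused-type S100 gene named here after its values were seen, read 16.04 on the treated CONT2 array and 1.86 to 2.83 on the other 7 arrays, while the other TCHHL1 probe was above background on no array. It was not tested.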
